A study of Mus musculus with 6 samples.

Results

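The IL-6 family genes described here are 10 of the 54532 gene rows of a count table from infarcted mouse hearts: the ligands Il6, Lif and Il11, the receptor chains Il6ra, Il11ra1, Il6st, Osmr and Lifr, the transcription factor Stat3 and its inhibitor Socs3. They were chosen by name, as the rows whose Ensembl identifier maps to these symbols, and all 10 were found. Hearts came from C57BL/6 mice aged 8 to 10 weeks and were taken at day 14 after myocardial infarction (MI). WT, the wild-type group, and ACKR4_KO, mice lacking the atypical chemokine receptor ACKR4, a scavenger of the chemokines CCL19, CCL21 and CCL25, had 3 libraries each. Both groups were infarcted, and no uninfarcted heart is part of the comparison. The labels give neither the part of the heart sampled nor how the knockout was made. Nothing beyond the replicate numbers and the numbered column names says that the libraries of a group are separate animals. The p-values therefore measure the spread between these libraries.

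Cytokines of the IL-6 family signal through the shared receptor chain gp130, encoded by Il6st. IL-6 and IL-11 first bind their own alpha chains, encoded by Il6ra and Il11ra1, whereas LIF and oncostatin M bring gp130 together with the LIF receptor or the oncostatin M receptor. Bound receptors activate JAK kinases, which phosphorylate STAT3, and STAT3 induces Socs3, whose product binds gp130 and JAKs and ends the signal. In the heart this pathway is known for cardiomyocyte survival and hypertrophy, and IL-6, IL-11 and oncostatin M for actions on fibroblasts and cardiomyocytes of the injured heart. STAT3 is switched on by phosphorylation, which RNA counts do not measure.

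The promoter windows of 3 genes are shown: that of Il6, the member with the largest fitted difference between the groups, that of Socs3, the feedback gene of the pathway, whose window holds a STAT motif, and that of Icam1, a gene of the STAT3 target list whose window holds one too. Each runs from 250 bases before to 50 bases after the RefSeq start site on GRCm38.p6, 5′ to 3′ on the gene's strand. Capitals mark matches to TTCNNNGAA (the STAT motif), GGGA and TTTCC with 1 base between them (an NF-kB motif), TGACGTCA (the cyclic AMP response element) or TGANTCA (an AP-1 motif), searched on both strands with overlapping matches counted.
Il6, chr5:30012864-30013163, plus strand: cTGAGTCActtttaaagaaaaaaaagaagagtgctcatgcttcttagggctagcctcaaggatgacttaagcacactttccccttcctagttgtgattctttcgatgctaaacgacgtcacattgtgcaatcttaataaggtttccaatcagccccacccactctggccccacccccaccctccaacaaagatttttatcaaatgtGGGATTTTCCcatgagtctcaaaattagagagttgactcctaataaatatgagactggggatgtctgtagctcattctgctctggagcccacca
Socs3, chr11:117969317-117969616, minus strand: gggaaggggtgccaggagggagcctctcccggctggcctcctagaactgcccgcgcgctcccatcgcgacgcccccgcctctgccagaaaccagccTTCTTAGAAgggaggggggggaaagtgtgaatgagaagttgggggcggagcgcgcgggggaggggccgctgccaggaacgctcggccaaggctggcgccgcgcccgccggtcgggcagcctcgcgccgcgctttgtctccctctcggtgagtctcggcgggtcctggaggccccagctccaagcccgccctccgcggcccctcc
Icam1, chr9:21015690-21015989, plus strand: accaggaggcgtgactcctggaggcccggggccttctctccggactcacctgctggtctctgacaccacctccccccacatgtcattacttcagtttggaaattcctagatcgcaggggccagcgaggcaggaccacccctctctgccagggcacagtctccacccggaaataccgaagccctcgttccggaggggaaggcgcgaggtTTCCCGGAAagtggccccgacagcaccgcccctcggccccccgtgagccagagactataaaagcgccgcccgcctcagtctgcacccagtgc
The Socs3 window held 1 STAT motif, TTCTTAGAA, which starts 154 bases before the start site, and the Icam1 window held TTCCCGGAA. In the Il6 window there was an NF-kB match, GGGATTTTCC, and an AP-1 match, TGAGTCA, but no match to TTCNNNGAA. All 10 members matched a RefSeq promoter entry, with 13 windows in all, and 1 of the 13 held TTCNNNGAA, against 8.3% of all 32851 windows of this length. The AP-1 motif stood in 4 of the 13 windows (Il6, Lif, Il11 and Osmr) and in 7.81% of all windows, the NF-kB motif in 1 of 13 and in 0.411%, and the cyclic AMP response element in 0 of 13 and in 1.79%. In the STAT3 target list TTCNNNGAA stood in 3 of 33 windows (Fga, Fgl2 and Icam1), so the Icam1 window is not typical of that list. A match is a run of letters and not a measured binding site.

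Facts of the whole series bear on the members as follows. Library totals ran from 9422462 to 13910358 counted reads. Ackr4 had 151 to 169 reads in the WT libraries and 1 to 12 reads in the ACKR4_KO libraries. Spread between libraries, as a biological coefficient of variation, came to 11.7% for WT and 26.7% for ACKR4_KO. With edgeR's quasi-likelihood test and Benjamini-Hochberg adjustment 0 (0%) of 14406 genes were below 0.05, and 24 (0.0942%) with no filter on low counts, while 1073 (7.45%) had an unadjusted p under 0.05, 3.64% lower and 3.81% higher in ACKR4_KO. DESeq2 called 41 genes, 0.234% of those with an adjusted p. The groups did not overlap in 14.2% of genes, 7.63% lower and 6.53% higher in ACKR4_KO. Summed levels of 8 cardiomyocyte markers were 28857 to 36663 CPM (counts per 1000000 reads of the scaled library) in WT and 38130 to 53151 CPM in ACKR4_KO. All 8 had a fitted value above 0, and 3 of them were separate between the groups. For 8 fibroblast markers the sums were 10240 to 11618 CPM in WT, and 9459, 3845 and 13399 CPM in ACKR4_KO replicates 1, 2 and 3. For 8 lung epithelial markers they were 39.3 to 240 CPM in WT and 0.404 to 1.92 CPM in ACKR4_KO.

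Il6 itself was lower in every ACKR4_KO library than in any WT library, and the alpha chain gene Il11ra1 showed the same order with a smaller difference. Neither passed the test over all genes. The signal transducer gene Il6st and the oncostatin M receptor gene Osmr were lower in 2 of the 3 ACKR4_KO libraries, and Stat3, Socs3, Il6ra and Lifr had overlapping groups. Of the 10 members, 9 passed the filter on low counts and were tested, and 0 passed edgeR's quasi-likelihood test after Benjamini-Hochberg adjustment, with adjusted p between 0.661 and 0.974. Ackr4, the gene these mice lack, did not pass this test either (log2 fold change -4.70, adjusted p 0.099). Not passing therefore does not show that a gene was equal between the groups, here or in the lists further on. By DESeq2 and by limma-voom 0 members passed as well. At an unadjusted p under 0.05 there were 2 of 9, Il6 and Il11ra1, both lower in ACKR4_KO. Read against the background of 7.45%, and of 3.64% for lower genes, 2 among 9 genes is a description of 2 genes and is not read as a property of the set. Their median log2 fold change was -0.16, and that of all genes tested was 0.01. In bulk tissue fewer cells of a type and less RNA per cell cannot be told apart, which holds for every difference given here.

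**Figure D1:**
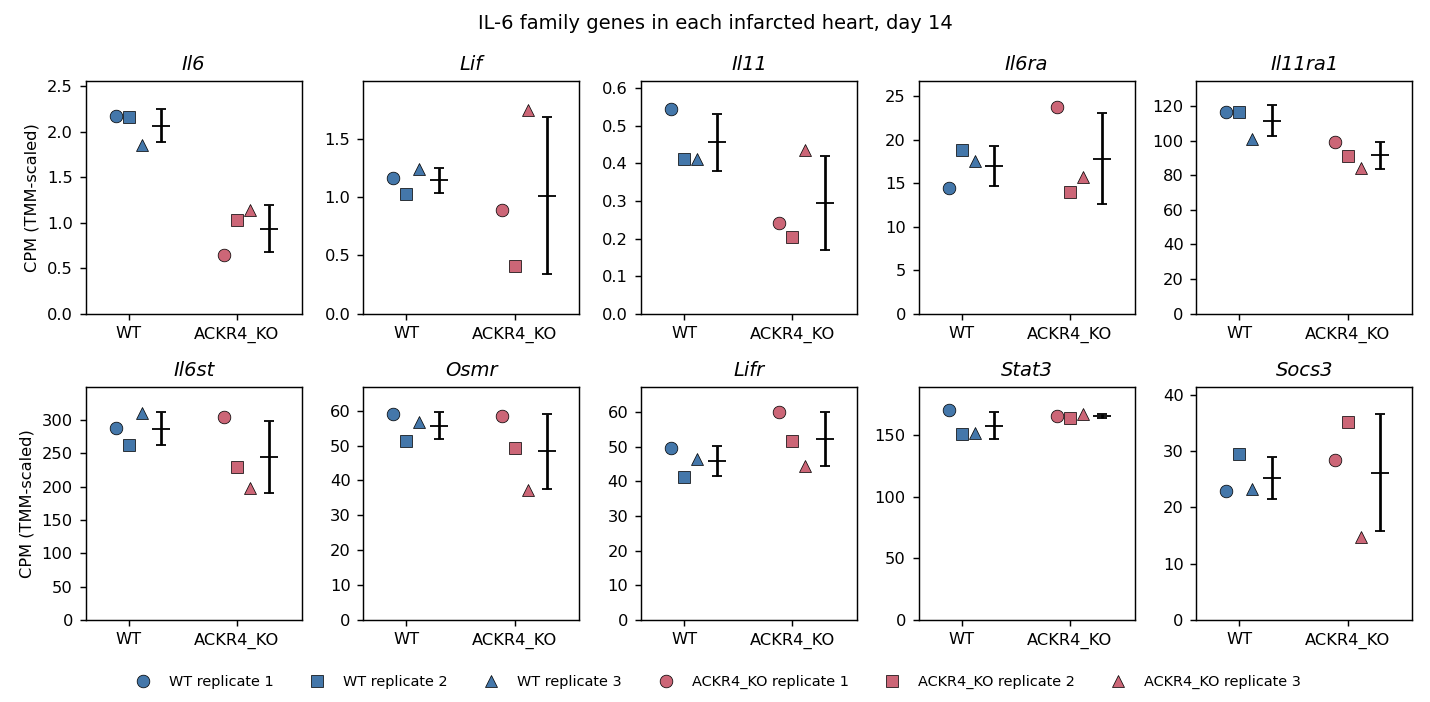
Levels of the 10 members in each library, in CPM on linear axes that start at 0; symbols give the replicate number, blue is WT and red is ACKR4_KO, and the bar beside each group is the mean with its SD (n = 3). The groups are separate for Il6 and Il11ra1 and overlap for the other 8 genes, and for Socs3, Lif and Il6ra the ACKR4_KO libraries lie far apart.

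Among the ligands, Il6 (ENSMUSG00000025746, chromosome 5, 30013114 to 30019981 on the plus strand of GRCm38) was counted in WT with 28 reads (replicate 1), 21 reads (replicate 2) and 27 reads (replicate 3), and in ACKR4_KO, in the same order of replicates used throughout, with 8, 10 and 13 reads. Scaled to library size these were 2.18, 2.16 and 1.86 CPM in WT and 0.646, 1.02 and 1.13 CPM in ACKR4_KO. The WT libraries lay close together, and the highest ACKR4_KO library was below the lowest WT library. The means were 2.07 ± 0.179 CPM in WT and 0.935 ± 0.256 CPM in ACKR4_KO (SD, n = 3 each), 54.7% lower. By edgeR's quasi-likelihood test the log2 fold change was -1.14 (SE 0.37, 95% interval -1.97 to -0.31), the unadjusted p 0.0129 and the adjusted p 0.661. When single libraries were left out, the log2 fold change of Il6 lay between -1.31 (without ACKR4_KO replicate 3) and -0.92 (without ACKR4_KO replicate 1), lower in each case. Il6 is made by many cell types, among them fibroblasts, macrophages and endothelial cells. Markers of other cells differed in the same direction. The summed level of 8 T and NK cell markers was 13.4 to 18.9 CPM in WT and 7.42 to 7.99 CPM in ACKR4_KO, with 4 of the 8 separate between the groups. Of the 8 lung epithelial markers 7 were separate, and 4 had 0 reads in all ACKR4_KO libraries. Their sums were 240, 39.3 and 117 CPM in WT replicates 1 to 3, where Il6 was at the 2.18, 2.16 and 1.86 CPM given above. The summed level of 8 macrophage markers overlapped between the groups (WT 1444 to 1844 CPM, ACKR4_KO 1133 to 1700 CPM), though all 8 had a fitted value below 0. For 8 endothelial markers the sum was 1971 to 2197 CPM in WT and 1493 to 1960 CPM in ACKR4_KO. The fibroblast sums, given above, overlapped. The part of these cells in the Il6 difference was not tested.

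Lif, a cytokine that acts through the LIF receptor and gp130, stood at 1.17, 1.03 and 1.24 CPM in WT and 0.888, 0.410 and 1.75 CPM in ACKR4_KO. One ACKR4_KO library was above all WT libraries and the other two were below them. The log2 fold change of Lif was -0.16 (SE 0.51), with an adjusted p of 0.946, and its 95% interval ran from -1.33 to 1.00. It was 0.19 without ACKR4_KO replicate 2 and -0.78 without ACKR4_KO replicate 3. Il11, a cytokine that acts on fibroblasts and other stromal cells, had 7, 4 and 6 reads in WT and 3, 2 and 5 reads in ACKR4_KO, too few to pass the filter. The mean came to 0.456 ± 0.0763 CPM for WT against 0.295 ± 0.124 CPM for ACKR4_KO, and the groups overlapped, with an exact two-sided permutation p of 0.3 where the smallest p that 3 against 3 libraries allow is 0.1. Lif and Il11 were thus at the edge of what this depth measures, since 3 reads correspond to up to 0.309 CPM. Il6 was low as well, with 8, 10 and 13 reads in ACKR4_KO. Like Lif, it reached the minimum level of the filter in only 2 of the 3 ACKR4_KO libraries.

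The alpha chains define which cells answer to IL-6 or IL-11. Il11ra1 (ENSMUSG00000073889, chromosome 4, 41699989 to 41769474, plus strand) was at 116, 117 and 101 CPM in WT and 99.3, 91.2 and 83.9 CPM in ACKR4_KO. The groups were separate by a narrow gap, between WT replicate 3 and ACKR4_KO replicate 1. Means were 111 ± 8.90 and 91.5 ± 7.73 CPM, 17.9% lower in ACKR4_KO, with a log2 fold change of -0.28 (SE 0.12), an unadjusted p of 0.0468 and an adjusted p of 0.665 by edgeR. The unadjusted p was 0.0594 by DESeq2 and between 0.0310 and 0.148 by edgeR with 1 library left out. With all 6 libraries and other edgeR settings it lay between 0.0372 (upper-quartile factors) and 0.0601 (no filter on low counts). Its side of 0.05 thus depended on single libraries and on the settings. The mouse genome carries near-identical copies of this gene, so reads can be lost or split between them. Of these, Il11ra2 had 0 to 7 reads per library. Il11ra1 is known as a gene of fibroblasts and other stromal cells. Of the 8 fibroblast markers 7 had a fitted value below 0 (median log2 fold change -0.38), and 1 of the 8, Lum, was separate between the groups. Dcn, the proteoglycan decorin, was at 1523, 1710 and 1621 CPM in WT against 1581, 1006 and 709 CPM in ACKR4_KO, whose libraries stood in the same order for Il11ra1. Col1a1, a collagen gene, stood in another order, with 1425, 472 and 2870 CPM in ACKR4_KO against 1549 to 1836 CPM in WT. For 8 smooth muscle and pericyte markers the sum was 1978 to 2270 CPM in WT against 1614 to 1952 CPM in ACKR4_KO, with 4 of 8 separate and lower, and the part of fibroblasts, smooth muscle cells and pericytes in the Il11ra1 difference was not tested. Il6ra, the IL-6 binding chain of leukocytes and hepatocytes, was at 14.4, 18.8 and 17.6 CPM in WT and 23.7, 13.9 and 15.7 CPM in ACKR4_KO. The ACKR4_KO libraries included both the highest and the lowest level. Its log2 fold change was 0.08 (SE 0.22, adjusted p 0.939), and it was -0.19 without ACKR4_KO replicate 1.

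The signalling chains Il6st, Osmr and Lifr had fitted differences of unlike sign, though their ACKR4_KO libraries stood in the same order. Il6st (chromosome 13, 112464070 to 112510086, plus strand), the gp130 gene, was at 288, 262 and 311 CPM in WT and 304, 229 and 199 CPM in ACKR4_KO. Replicate 1 of ACKR4_KO lay within the WT range and the other 2 lay below it. Its log2 fold change was -0.24 (SE 0.18, 95% interval -0.64 to 0.17, adjusted p 0.756 by edgeR). Osmr, the oncostatin M receptor chain, was at 59.0, 51.4 and 56.7 CPM in WT and 58.6, 49.4 and 37.2 CPM in ACKR4_KO, and its ACKR4_KO libraries stood in the same order as those of Il6st. Its log2 fold change was -0.20 (SE 0.17, adjusted p 0.780). Lifr, the LIF receptor chain, was at 49.7, 41.3 and 46.4 CPM in WT and 60.1, 51.6 and 44.5 CPM in ACKR4_KO. The ACKR4_KO libraries of Lifr also stood in this order, as did those of Il11ra1. Here 2 of 3 ACKR4_KO libraries were above all WT libraries, and the log2 fold change was 0.19 (SE 0.14, adjusted p 0.761). Without ACKR4_KO replicate 1, Il6st and Osmr joined Il6 and Il11ra1 as genes with separate groups, 4 of 10 in place of 2, and the share of all genes tested with separate and lower values was then 15.6% in place of 7.63%. Without ACKR4_KO replicate 3 the count was also 4, with Il11 and Lif in place of Il6st and Osmr, against 16.6% of all genes tested. The member counts include Il11, which did not pass the filter, whereas the shares cover tested genes only.

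**Figure D2:**
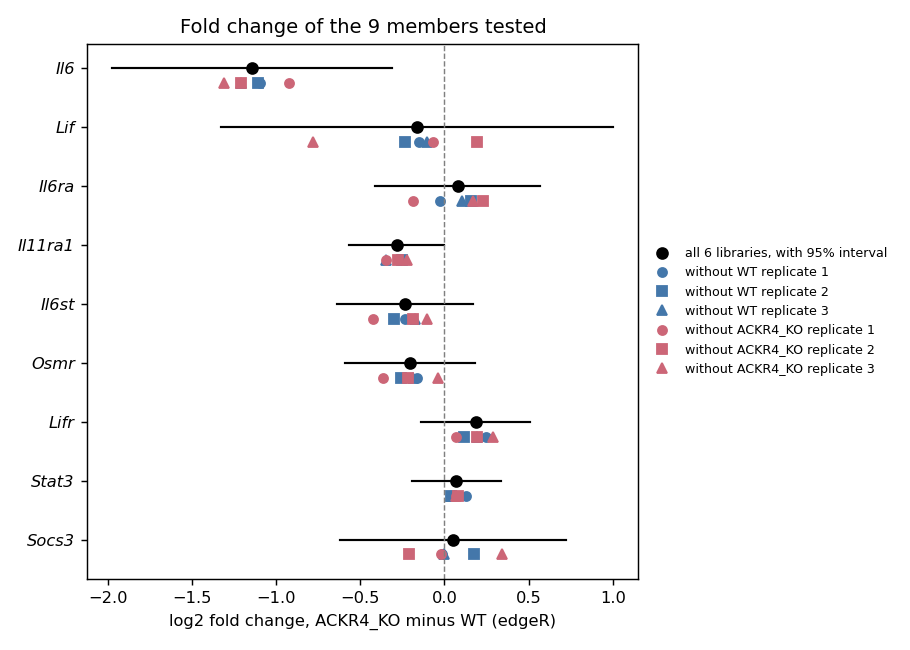
Log2 fold change of the 9 members tested, ACKR4_KO minus WT on the x axis; black points are edgeR's estimate from all 6 libraries with its 95% interval, and coloured symbols are the estimates without 1 library. Il6 stays below 0 throughout, between -1.31 and -0.92, while Socs3, Il6ra and Lif cross 0 when 1 library is left out.

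Stat3 (chromosome 11, 100885098 to 100939540, minus strand), the transcription factor at the end of the pathway, had overlapping groups and a small spread. It was at 171, 151 and 152 CPM in WT and 166, 164 and 167 CPM in ACKR4_KO. All ACKR4_KO libraries lay inside the WT range, with an SD of 1.72 CPM against 11.2 CPM in WT. The log2 fold change was 0.07 (SE 0.12, adjusted p 0.896), and its 95% interval ran from -0.19 to 0.33. Socs3 (chromosome 11, 117966079 to 117970047, minus strand), the feedback inhibitor whose promoter window with the STAT motif is printed above, was at 22.9, 29.5 and 23.3 CPM in WT and 28.4, 35.1 and 14.8 CPM in ACKR4_KO. Replicate 2 of ACKR4_KO was the highest and replicate 3 the lowest of all 6 libraries. Its means were 25.2 ± 3.73 CPM (WT) and 26.1 ± 10.4 CPM (ACKR4_KO), with a log2 fold change of 0.05 (SE 0.29, 95% interval -0.62 to 0.72, adjusted p 0.974). The sign for Socs3 depended on single libraries, at -0.21 without ACKR4_KO replicate 2 and 0.34 without ACKR4_KO replicate 3. The genes whose pattern over the 6 libraries was most like that of Socs3, among 11163 genes with a mean of at least 5 CPM, were Gstk1, Ogdhl and Acads. Likeness was the root mean square difference of centred log2 CPM, which was 0.0754, 0.0773 and 0.0806 for the 3 genes. Gstk1 encodes a glutathione transferase, Ogdhl a relative of the 2-oxoglutarate dehydrogenase subunit and Acads a dehydrogenase of short-chain fatty acid oxidation.

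Levels per exonic length allow the members to be ranked (CPM per kb of the merged exons of all annotated isoforms). In WT the order was Il6st (25.9 ± 2.21), Il11ra1 (24.9 ± 1.99), Stat3 (16.6 ± 1.17), Socs3 (8.73 ± 1.29), Osmr (4.60 ± 0.320), Lifr (4.25 ± 0.396), Il6ra (1.96 ± 0.264), Il6 (0.851 ± 0.0738), Lif (0.263 ± 0.0246) and Il11 (0.219 ± 0.0367). The WT ranges of Il6st and Il11ra1, of Osmr and Lifr, and of Lif and Il11 overlapped, and the ranges of the other neighbours were separate. Within each WT library Osmr was nevertheless above Lifr by these lengths, as the ratios further on show. Thus the gp130 chain was measured far above the IL-6 alpha chain, and all 3 ligands were below every receptor chain. In ACKR4_KO the levels per kb were 22.0 ± 4.88 for Il6st, 20.5 ± 1.73 for Il11ra1, 4.83 ± 0.723 for Lifr and 0.385 ± 0.106 for Il6.

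**Figure D3:**
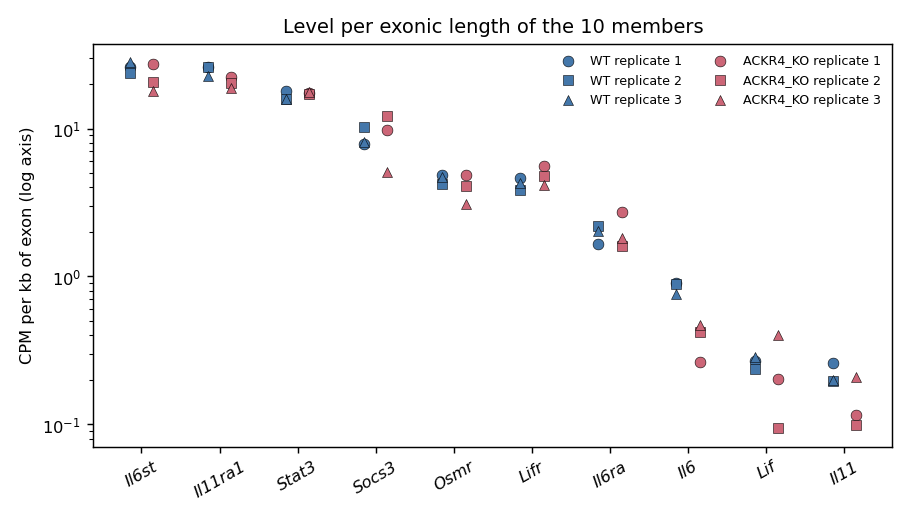
Level of each member per kb of exon on a log axis, 1 symbol per library (blue WT, red ACKR4_KO), ordered by the WT mean. Il6st and Il11ra1 lead at 25.9 and 24.9 CPM per kb in WT, and the ligands Il6, Lif and Il11 lie below every receptor chain.

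Ratios between 2 members within a library do not depend on library scaling, and they compare how the receptor chains stood to each other. Of the 36 pairs of tested members, the ratio of levels per kb did not overlap between the groups in 10, of which 6 involve Il6, so the 10 are not independent. The share among pairs of other genes was not computed, so this count is only a description. The other 4 pairs were Osmr to Lifr, Il6st to Lifr, Lifr to Il11ra1 and Il11ra1 to Stat3. They were picked after their values were seen. Each had an exact two-sided permutation p of 0.1, the smallest that 3 against 3 libraries allow, and 0.36 after Benjamini-Hochberg adjustment over the 36 pairs. Separate groups always give this p, so it only restates the choice.

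Osmr and Lifr are the alternative partners of gp130 for oncostatin M and LIF. Per kb their ratio came to 1.06, 1.11 and 1.09 for the WT libraries and to 0.868, 0.851 and 0.743 for the ACKR4_KO libraries. Per kb Osmr was thus above Lifr in every WT library and below it in every ACKR4_KO library, although neither gene alone had separate groups. Which side of 1 a ratio lies on depends on the exonic lengths used, while the relative difference between the groups does not. The mean ratio was 1.08 ± 0.0272 in WT and 0.821 ± 0.0677 in ACKR4_KO (SD, n = 3 each). Il6st to Lifr was 6.10 ± 0.442 in WT and 4.52 ± 0.341 in ACKR4_KO. Il6 to Il6st was 0.0332 ± 0.00531 in WT and 0.0188 ± 0.00832 in ACKR4_KO. Il11ra1 to Stat3 was 1.51 ± 0.122 in WT and 1.18 ± 0.102 in ACKR4_KO. A ratio shows unequal change and not which gene differed. The cardiomyocyte sum, given above, was also separate between the groups, and its part in these ratios was not tested.

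**Figure D4:**
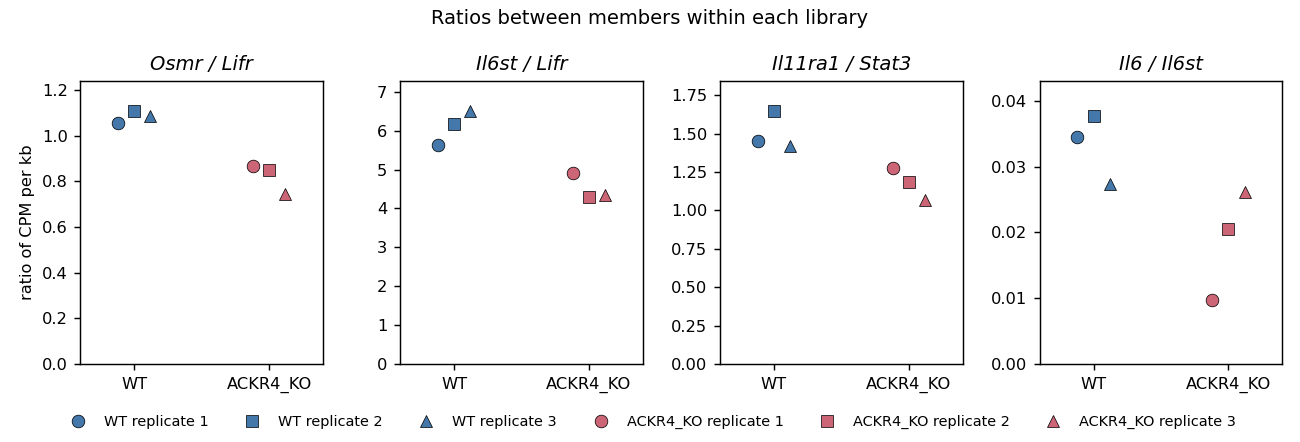
Ratio of levels per kb between 2 members within each library, for 4 pairs, on linear axes that start at 0; symbols give the replicate, blue is WT and red is ACKR4_KO. Every ACKR4_KO library lies below every WT library in the 4 panels (Osmr to Lifr 1.08 against 0.821 on average). The pairs were chosen among those with separate groups, so this separation was fixed by the choice. Lifr to Il11ra1, which was higher in ACKR4_KO, is not drawn.

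Other ligands and receptors of the family were described from a list of 11 genes, of which 7 passed the filter. By edgeR 0 of 7 passed the adjusted threshold in either direction, and all 7 had a fitted value below 0 in ACKR4_KO (48% of all genes did). The groups were separate for 1 of the 7 (14.3%, against 14.2% of all genes). That gene was Osm, the oncostatin M of macrophages and neutrophils, with 24, 10 and 23 reads in WT and 6, 8 and 7 reads in ACKR4_KO. At 1.87, 1.03 and 1.58 CPM in WT against 0.485, 0.820 and 0.611 CPM in ACKR4_KO, every ACKR4_KO library was lower (log2 fold change -1.24, SE 0.43, adjusted p 0.661). Osm passed the filter through the WT libraries alone, so a difference was built into its entry. The summed level of 7 neutrophil markers overlapped between the groups (WT 26.7 to 37.1 CPM, ACKR4_KO 10.0 to 37.8 CPM). Ebi3, a subunit of IL-27, had a log2 fold change of -0.86 and Cntfr, the alpha chain for ciliary neurotrophic factor, of -0.45. Ctf1, the gene of the heart cytokine cardiotrophin-1, had means of 5.08 ± 0.349 CPM (WT) and 4.97 ± 0.851 CPM (ACKR4_KO), and its groups overlapped. Cntf, Il27, Il31ra and Il11ra2 had 0 to 7 reads per library and were not tested.

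Kinases and regulators of gp130 signalling were all measured, 21 of 21 genes, and by edgeR 0 passed in either direction, also at an unadjusted p under 0.05 and by DESeq2's adjusted p. The groups did not overlap in 5 of them (23.8%, against 14.2% of all genes), 2 lower and 3 higher in ACKR4_KO, and the median log2 fold change was -0.10. Socs1, another inhibitor of JAK kinases, was at 7.08, 4.94 and 5.17 CPM in WT and 4.68, 4.30 and 2.88 CPM in ACKR4_KO. The groups of Socs1 were separate, with a log2 fold change of -0.53 (SE 0.27, adjusted p 0.689). Ptpn1, a phosphatase that acts on JAK kinases, and Adam10, a membrane protease that can shed IL-6 receptor, had log2 fold changes of -0.20 each, and Socs7 had 0.20. Grb2 and Ptpn11, the adaptor and the phosphatase that link gp130 to the MAP kinase pathway, had the highest levels per length, with log2 fold changes of 0.15 and 0.12. Both were higher in every ACKR4_KO library, and Ptpn11 had means of 253 ± 3.21 CPM (WT) and 275 ± 1.76 CPM (ACKR4_KO). The kinase genes Jak1, Jak2 and Tyk2, named after their values were seen, had log2 fold changes of 0.01, -0.18 and 0.06, and the groups overlapped for all 3.

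Among STAT3 target and acute phase genes both directions were seen. Of 30 genes 28 were tested, and by edgeR 0 passed the adjusted threshold in either direction. At an unadjusted p under 0.05 there were 10 (35.7%, against 7.45% of all genes), 6 lower and 4 higher in ACKR4_KO. The groups did not overlap in 10 genes (35.7%, against 14.2% of all genes), 6 lower and 4 higher. The median log2 fold change was -0.24. DESeq2 passed 1 of them, Serpina3n. Many of these genes answer to other signals too, and the list was written with earlier results of these data known, so its counts are a description.

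Serpina3n, an acute phase serine protease inhibitor, was at 155, 141 and 151 CPM in WT and 89.2, 42.2 and 75.2 CPM in ACKR4_KO. Each ACKR4_KO library was far below every WT library, with means of 149 ± 7.07 and 68.9 ± 24.1 CPM, 53.8% lower. The log2 fold change was -1.11 (SE 0.24), and edgeR's quasi-likelihood test gave it an adjusted p of 0.606, DESeq2 one of 0.00527. Junb, an AP-1 subunit and immediate early gene, was at 81.1, 64.7 and 71.4 CPM in WT and 54.0, 52.1 and 47.5 CPM in ACKR4_KO. All 3 ACKR4_KO values of Junb were lower, with a log2 fold change of -0.50 (SE 0.13, adjusted p 0.606). Icam1, a leukocyte adhesion molecule of endothelium whose promoter window is printed above, was at 36.5, 32.0 and 36.6 CPM in WT and 27.3, 26.9 and 18.3 CPM in ACKR4_KO. The groups of Icam1 were separate (log2 fold change -0.54, SE 0.17, adjusted p 0.633). Of the 8 endothelial markers 1 was separate, and their summed level was 1971 to 2197 CPM in WT and 1493 to 1960 CPM in ACKR4_KO, also lower. The lung epithelial sum, given above, was also lower in every ACKR4_KO library. The part of endothelial content and of lung transcripts in the Icam1 difference was not tested.

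In the other direction stood Vegfa, the growth factor of blood vessels, with 156, 135 and 142 CPM in WT and 182, 225 and 202 CPM in ACKR4_KO. Every ACKR4_KO library was above every WT library, with a log2 fold change of 0.49 (SE 0.13, adjusted p 0.606). Mt1, a metallothionein that also answers to metals and glucocorticoids, had 113, 123 and 95.9 CPM in WT against 129, 185 and 297 CPM in ACKR4_KO. The ACKR4_KO values of Mt1 were all above WT but spread widely, and its log2 fold change was 0.88 (SE 0.28, adjusted p 0.661). Mcl1, a survival factor of the BCL2 family, had means of 302 ± 19.2 CPM (WT) and 329 ± 13.0 CPM (ACKR4_KO) with overlapping groups. The remaining separate genes, named here after their values were seen, were Bcl3, Lbp and Hif1a, lower with log2 fold changes of -0.48, -0.61 and -0.29, and Bcl2l1 and Pim1, higher with 0.68 and 0.32. Vegfa and Bcl2l1 are expressed in heart muscle, and the cardiomyocyte sum was also higher in every ACKR4_KO library. Its part in these differences was not tested.

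**Figure D5:**
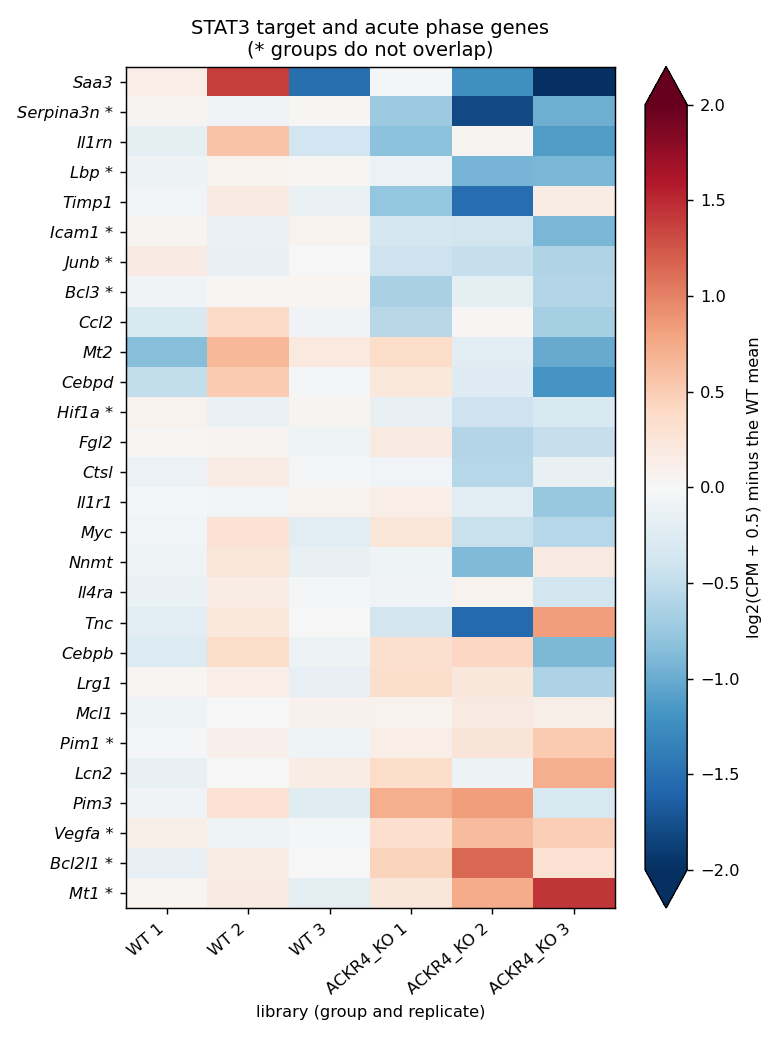
STAT3 target and acute phase genes (28 rows, those tested) in the 6 libraries (columns); colour is log2(CPM + 0.5) minus the WT mean, blue lower and red higher, with rows ordered by fold change and a star on the 10 genes whose groups do not overlap. Serpina3n is low in all 3 ACKR4_KO libraries, other rows near the top such as Saa3 and Timp1 are not low in each of them, and Vegfa, Bcl2l1 and Mt1 at the bottom are high in them.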

How the data were processed

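Heart RNA was sequenced in 6 libraries, made with 1 ug of total RNA, per the labels' protocols. The authors deposited raw read counts per Ensembl gene and library. CASAVA 1.8.2, HISAT2, HTSeq 0.6.0 and mm10 are named in the submitters' processing notes. For the counting, neither annotation release nor strand setting is given in the sources used here, so reads of overlapping genes may be shared. Exons of Il6ra share 242 bases with the antisense gene Gm42809 (1 read in all), those of Stat3 72 bases with Stat5a and those of Il11ra1 8 bases with Ccl27a. Symbols, coordinates and lengths came from GENCODE M21 on GRCm38, the assembly of mm10.

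Genes passing filterByExpr (minimum count 10, total 15) were tested with edgeR 4.0.16 in R 4.3.3, with TMM scaling, robust quasi-likelihood and Benjamini-Hochberg adjustment over all genes, two-sided, at 0.05. CPM used TMM-scaled library sizes. The SE was obtained as fold change over the root of F. DESeq2 1.42.0, limma-voom (limma 3.58.1), other scalings and filters, a replicate block and leaving out each library were alternatives. The tests were also run on counts simulated with the same dispersion in both groups, unlike the unequal spread of these libraries. That run therefore does not measure their error rate here. Floors cover counting error alone.

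The members and lists were chosen with earlier results of these data known. All 10 members are named. In each further list the 4 genes with the smallest p and the 2 with the highest level per length are named, except for a gene that is not reported here, and others were named after their values were seen.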

Additional observations from a re-analysis of the deposited data

How the results depend on the processing

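Over the 15 alternatives run for the members, 0 of them passed in each, and the lowest adjusted p of any member was 0.306, without ACKR4_KO replicate 3. The log2 fold change of Il6 was below 0 in all 14 alternatives that tested it, and those of Il6st, Osmr and Il11ra1 in all 15. Under the stricter filter Il6 and Lif were no longer tested, and the members' median moved from -0.16 to 0.0486 because fewer genes enter it. The median ranged from -0.23 to -0.04 with 1 library left out. Reversed signs, all of values near 0, were those of Socs3 with limma-voom (-0.0301), with the replicate block (-0.0204) and between -0.21 and 0.34 with 1 library left out, of Il6ra (-0.19 to 0.23) and of Lif (-0.78 to 0.19). The cause was not tested. Members separate between the groups, counted under scalings and omissions chosen after seeing the data, were the same 2 genes, Il6 and Il11ra1, with RLE factors, upper-quartile factors and total reads, and 2 to 4 with 1 library left out. Other pathway genes that passed were 0, and 1 by DESeq2. All genes that passed were 0 in the main test, 41 by DESeq2, 24 without a filter on low counts, 6 with the replicate block, and 0 to 1 with 1 library left out. Ackr4 had a log2 fold change of -4.70 (adjusted p 0.099 by edgeR), -4.73 by DESeq2, -4.70 without the filter, where it passed, and -5.82 to -4.28 with 1 library left out. Scalings moved the median of all genes by less than 0.1. Same-numbered libraries of the groups had correlations of their deviations across genes of 0.0632, 0.0599 and 0.129. Different-numbered libraries had values between -0.141 and 0.0741. These values do not decide whether the numbers are pairs. The main test did not use the numbers as pairs, and the block, an alternative, changed no call of a member. Few reads limit Il6, Lif and Il11.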

Other observations

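Further STAT3 target and acute phase genes, named after their values were seen, had widely spread ACKR4_KO libraries. Timp1, the metalloprotease inhibitor, was at 40.9, 47.8 and 38.6 CPM in WT replicates 1 to 3 against 24.5, 14.3 and 47.0 CPM in the ACKR4_KO libraries. Tnc, a matrix protein of injured tissue, was at 41.4, 56.6 and 48.9 CPM against 37.4, 16.2 and 87.2 CPM. Both genes were lowest in ACKR4_KO replicate 2, which had the lowest fibroblast marker sum (3845 CPM), and the ACKR4_KO library with the highest sum (replicate 3, 13399 CPM) had the highest Tnc of all 6. The fibroblast markers were divided in replicate 3. Col1a1, Col1a2, Postn and Tcf21 were above every WT library there, and Col3a1 was within the WT range. Dcn (709 CPM), Lum (273 CPM) and Pdgfra (68.1 CPM) were below every WT library, so the sum does not rank fibroblast content. The part of fibroblasts in the Timp1 and Tnc values was not tested. Saa3, an acute phase serum amyloid, ranged from 2.69 to 23.1 CPM within WT and from 1.22 to 8.40 CPM within ACKR4_KO. By edgeR the adjusted p was 0.744 for Timp1, 0.984 for Tnc and 0.732 for Saa3, and the groups overlapped in each.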
